A study of Brassica napus with 12 samples.

Results

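Wide H3K27me3 domains of *Brassica napus* are described here: stretches of at least 5000 bp that peaks of trimethylated lysine 27 of histone H3 occupied without interruption once the 6 libraries of this mark were laid over each other. Peaks of the 6 libraries were merged wherever they overlapped by 1 bp or more. A merged region was a domain if it was 5000 bp or wider and had a peak in both libraries of at least 1 tissue. This gave 991 domains among 29471 merged regions. They were 3.36% of the regions but held 14.8% of the region bases, 6.68 Mb in all, or 0.779% of the span of the 19 long sequences on which they lay.

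The samples were chromatin immunoprecipitates of H3K27me3 and H3K4me3 from HZ62, a *Brassica napus* hybrid whose genotype field reads WT, with 2 libraries for each mark in each of 3 tissues (12 in all). Seedlings were 2 weeks old, flower buds (buds for short) were under 2 mm and siliques, the seed pods, were 3 to 5 cm long, and every group had 16 h of light at 22 °C and 8 h of dark at 18 °C. The titles call the seedling libraries leaf, and the tissue field spells bud as bug. The labels do not say that a group was sampled from separate plants, so the p-values below measure the spread between libraries, which may be technical. Each tissue is a mixture of cell types, in which a mark carried by fewer cells and a weaker mark per cell cannot be told apart.

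H3K27me3 is laid down by Polycomb repressive complexes and is associated with silenced genes, many of them regulators of development. In the related plant *Arabidopsis thaliana* it spreads over whole gene bodies, and its loss from such a gene, as from the floral regulators in developing flowers, accompanies activation. H3K4me3 is deposited at the starts of transcribed genes and forms short peaks there. A stretch that carries both in a tissue may hold both on the same chromatin or each in different cells, which peak lists of whole tissue cannot tell apart. The domains are given by position only, because no genome or gene annotation of their build was used here. Sequences are numbered as in the files, and by order and extent numbers 1 to 10 match chromosomes A1 to A10 and numbers 11 to 19 match C1 to C9.

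Depth differed widely between the H3K27me3 libraries. Fragments after filtering numbered 3647059 and 3479885 in seedlings, 11513204 and 10929797 in buds, and 7441109 and 2654588 in siliques. The H3K4me3 libraries were more even, with 8609548 to 14339594 fragments. Library numbers in the titles ran from 53 to 66 for seedling and were higher for the other tissues, so seedling and an earlier series of libraries cannot be told apart. The domains were chosen by the position and width of H3K27me3 peaks, so all H3K27me3 values below are descriptions without a test, while H3K4me3 played no part in the choice.

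The domains were mostly a little over the minimum width. Their median width was 6249 bp, with quartiles of 5535 and 7405.5 bp, and 427 of them were 5 to 6 kb wide, 379 were 6 to 8 kb, 137 were 8 to 10 kb and 48 were 10 kb or wider. All merged regions of 5000 bp or more met the tissue requirement. Just inside the limit lay sequence 15 from 5225734 to 5230733 (5000 bp) and sequence 15 from 43840741 to 43845740 (5000 bp), and just outside it lay sequence 13 from 27939156 to 27944150 (4995 bp) and sequence 6 from 26875006 to 26879999 (4994 bp). These 4 regions had peaks in all 6 libraries.

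Nearly all domains were marked in every tissue. A peak was present in all 6 libraries at 957 of the 991 domains (96.6%), in 5 libraries at 17 and in 4 libraries at 17, whereas 38.8% of the 22314 narrower regions had a peak in all 6. Both flower bud libraries had a peak in 991 domains, both silique libraries in 977 and both seedling libraries in 968. Regions in both flower bud libraries and neither seedling library were 12 of the domains, against 19.6% of all merged regions, and regions in both silique libraries and neither seedling library were also 12, against 2.14%. For flower bud and not silique the count was 2 domains (12.2% of all regions), for seedling and not silique 2 (3.32%), for seedling and not flower bud 0 (1.58%) and for silique and not flower bud 0 (0.265%). These H3K27me3 shares follow from the choice of wide regions and support nothing further.

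The full width of most domains came from flower bud. A single flower bud peak of 5000 bp or more lay in 594 domains in library 1 and in 871 in library 2, while the counts were 147 and 77 in seedlings and 362 and 37 in siliques. In 905 domains (91.3%) the widest single peak was a flower bud peak, and in 75 domains no single peak of any library reached 5000 bp. Only 23 domains had a peak that wide in all 6 libraries.

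Coverage of the domains by peaks was high and even in buds and lower elsewhere. Of all domain bases, peaks covered 67.3 and 60.1% in seedlings, 90.5 and 97.3% in buds and 80.3 and 47.9% in siliques. The median domain was covered over 70.6 and 62.6% of its length in seedlings, 92.7 and 99.3% in buds and 84.0 and 48.4% in siliques. The order of the libraries followed their fragment numbers closely, except that flower bud library 2 covered more than library 1 with slightly fewer fragments. At least 90% coverage was reached in 103 and 36 domains in seedlings, 619 and 917 in buds and 329 and 8 in siliques. Bases under peaks of both libraries of a tissue were 55.7% in seedlings, 89.5% in buds and 47.7% in siliques, and bases under neither were 28.2, 1.70 and 19.4%. A core of 39.3% of domain bases was covered in all 6 libraries, and 954 domains held at least 1 such base.

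Seedling peaks broke up inside the domains. A domain held on average 2.52 and 2.62 separate peaks in the seedling libraries, 1.49 and 1.09 in buds and 1.79 and 2.14 in siliques. A single peak stood in 19.3 and 15.6% of domains in seedlings, in 60.1 and 91.9% in buds and in 43.3 and 26.6% in siliques, and 3 or more stood in 44.6 and 49.95% of domains in seedlings. The uncovered stretches between peaks, called breaks here, numbered 1526 and 1627 in seedlings, 487 and 87 in buds and 780 and 1142 in siliques. Their median length was 449.5 and 489 bp in seedlings, 438 and 377 bp in buds and 501.5 and 732 bp in siliques. Silique library 2, with the fewest fragments, lost more at the outside: 35.1% of domain bases lay beyond its outermost peaks, against 18.1 and 22.5% in seedlings, 5.76 and 2.02% in buds and 11.5% in silique library 1. Per kb covered, breaks numbered 0.339 and 0.405 in seedlings, 0.0805 and 0.0134 in buds, and 0.145 and 0.357 in siliques. The part of depth in these differences was not tested.

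**Figure D1:**
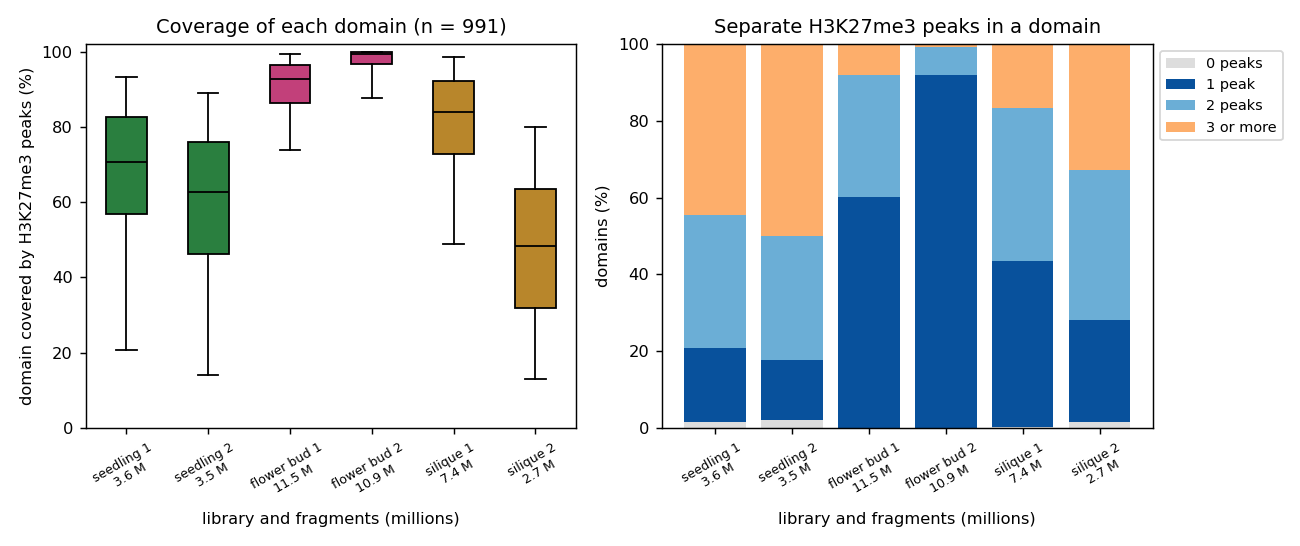
H3K27me3 coverage of the 991 domains (percent of domain bases under peaks; line, median; box, quartiles; whiskers, 5th to 95th percentile) and the number of separate peaks per domain (stacked percent of domains) in each of the 6 libraries. Flower bud libraries have medians of 92.7 and 99.3% and mostly 1 peak per domain, whereas seedling libraries have medians of 70.6 and 62.6% and 3 or more peaks in 44.6 and 49.95% of domains.

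Breaks of seedling library 1 mostly recurred in seedling library 2, and recurrence varied between libraries. Of the 1526 breaks of seedling library 1, the midpoint was also uncovered in seedling library 2 for 79.4%, where 39.9% of all domain bases were uncovered. The share was highest in silique library 2, the library with the fewest fragments, at 84.4% (52.1% of all domain bases). The midpoint was uncovered in silique library 1 for 36.2% of these breaks (19.7%), in flower bud library 1 for 17.2% (9.51%) and in flower bud library 2 for 2.29% (2.66%). Compared with all domain bases, these midpoints were more often uncovered in each of those libraries except flower bud library 2. Breaks of seedling library 2 were uncovered in seedling library 1 for 57.96% (32.7% of all domain bases) and in silique library 2 for 79.4% (52.1%). For flower bud libraries 1 and 2 the share in the other bud library was 6.78% (2.66%) and 51.7% (9.51%). For silique libraries 1 and 2 it was 98.97% (52.1%) and 20.4% (19.7%). Breaks lie between peaks, whereas the shares of all domain bases include bases beyond the outermost peaks of a library. Such outer bases were 2.02% of all domain bases in flower bud library 2 and 11.5% in silique library 1. Bases in breaks were 0.642 and 8.17% there. The shares of midpoints and of all bases are therefore not directly comparable.

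The widest domain was sequence 3 from 18753937 to 18776639 (22703 bp). H3K27me3 peaks covered 87.7 and 86.3% in seedlings, 96.5 and 99.4% in buds and 91.4 and 61.9% in siliques. The separate peaks in it numbered 3 and 3 in seedlings, 3 and 1 in buds and 2 and 8 in siliques, and no H3K4me3 peak lay in it in any library. The second widest, sequence 14 from 1844919 to 1863801 (18883 bp), was covered over 91.7 and 86.97% in seedlings, 95.7 and 100% in buds and 87.3 and 61.3% in siliques, and it too had no H3K4me3 peak in any library. Its summit pileup, the number of fragments stacked at the highest point, was 167 and 138 in seedlings, 459 and 527 in buds and 262 and 74 in siliques, against domain medians of 47 and 40, 150 and 180, and 95 and 31.

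The other 8 of the 10 widest domains ran from 15355 to 12615 bp. They were sequence 16 from 45483638 to 45498992 (15355 bp), sequence 12 from 12761885 to 12776788 (14904 bp), sequence 3 from 3440620 to 3454023 (13404 bp), sequence 11 from 44439762 to 44452783 (13022 bp), sequence 19 from 61193861 to 61206765 (12905 bp), sequence 19 from 24371217 to 24383981 (12765 bp), sequence 14 from 66613537 to 66626162 (12626 bp) and sequence 5 from 7216496 to 7229110 (12615 bp). The domain on sequence 16 was the most divided, and the separate peaks in it numbered 8 and 10 in seedlings, 4 and 2 in buds and 5 and 4 in siliques. Another domain with many peaks was sequence 5 from 1700914 to 1711747 (10834 bp), where the peaks numbered 4 and 8 in seedlings, 2 and 1 in buds and 4 and 6 in siliques. Neither had an H3K4me3 peak. The domain on sequence 19 that starts at 61193861 was the most evenly covered of these, with 98.6 and 91.3% in seedlings, 99.3 and 99.3% in buds and 97.5 and 84.2% in siliques.

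H3K4me3 lay in 4 of the 10 widest domains. On sequence 14, the domain that starts at 66613537 had an H3K4me3 peak in every library, which covered 5.68 and 6.31% in seedlings, 7.71 and 8.2% in buds and 9.79 and 6.23% in siliques, and its H3K27me3 coverage was 46.6 and 39.2% in seedlings, 92.2 and 100% in buds and 79 and 41.2% in siliques. The domain on sequence 19 that starts at 24371217 had H3K4me3 over 7.24 and 6.49% in seedlings, 0 and 0% in buds and 9.36 and 7.01% in siliques, and H3K27me3 over 42.9 and 36.1% in seedlings, 93.5 and 99.4% in buds and 80.9 and 44.1% in siliques. In the domain on sequence 3 that starts at 3440620, H3K4me3 covered 0 and 0% in seedlings, 3.19 and 2.9% in buds and 4.36 and 3.05% in siliques. In the one on sequence 12 that starts at 12761885, it covered 0 and 2.27% in seedlings, 0 and 0% in buds and 2.82 and 2.83% in siliques. In the first 2 of these domains, seedling H3K27me3 covered less than the seedling median.

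**Figure D2:**
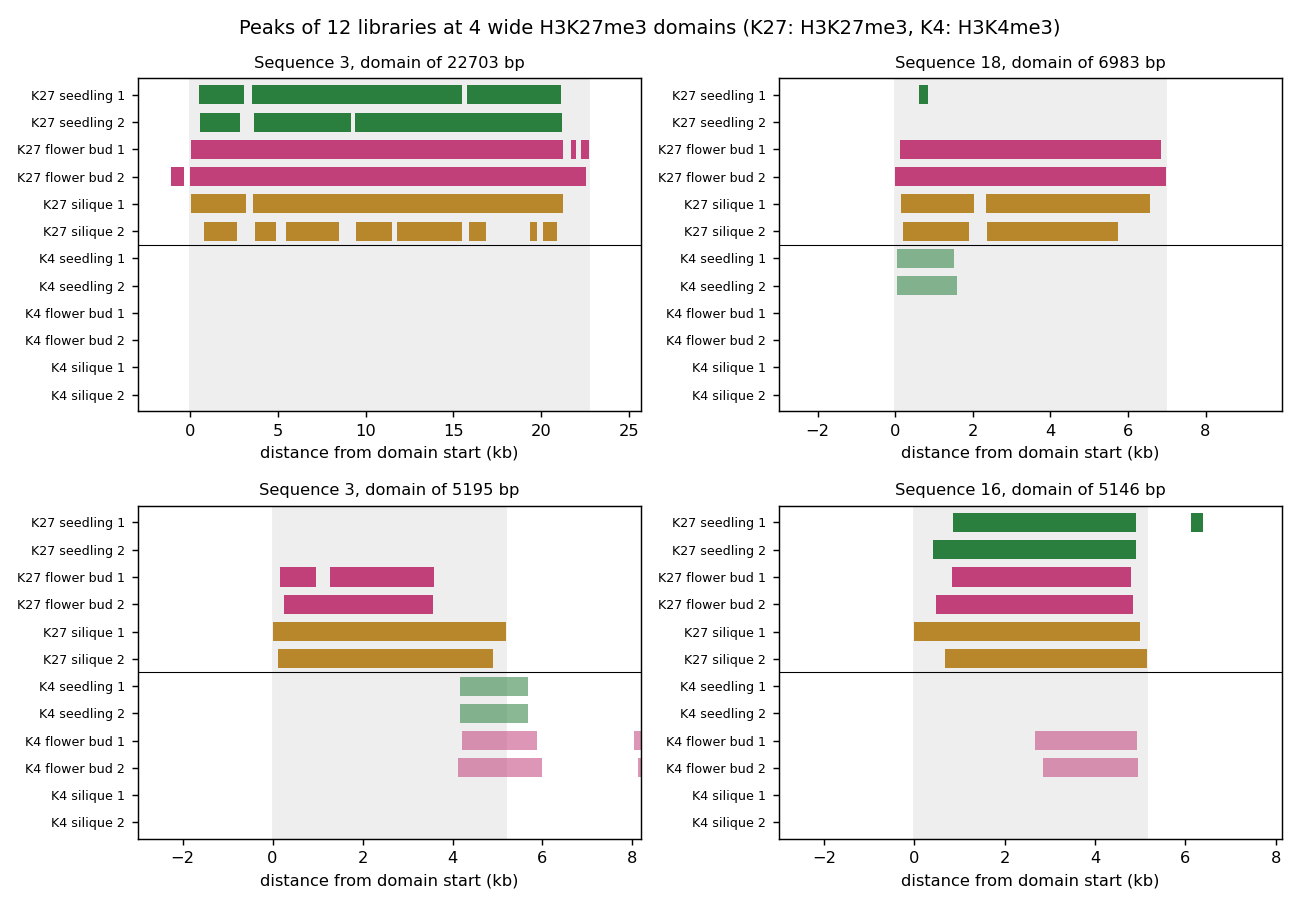
Peaks of the 12 libraries across 4 domains, drawn to scale from each domain's start (x axis, kb), with H3K27me3 and H3K4me3 libraries on separate lines. The domains are 22703, 6983, 5195 and 5146 bp wide. The widest is broken in 8 pieces in silique library 2 and carries no H3K4me3, and in the 6983 bp domain H3K4me3 lies in the seedling libraries, where H3K27me3 covers 3.62 and 0% of the domain.

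Median summit pileup was higher in the domains than in narrower regions in every library. Over the 957 domains with a peak in all 6 libraries, the median highest pileup was 47 and 40 fragments in seedlings, 150 and 180 in buds and 95 and 31 in siliques. Divided by fragments and multiplied by 1000000 this came to 12.9 and 11.5, 13.0 and 16.5, and 12.8 and 11.7, so most of the difference between libraries went with their depth. Relative to the median of the 8668 narrower regions found in all 6 libraries, the domains stood at 1.52 and 1.54 in seedlings, 1.63 and 1.75 in buds, and 1.58 and 1.55 in siliques. A wide region holds more summits than a narrow one, so its highest is taken from more values.

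On this relative scale, 251 of the 957 domains (26.2%) were higher in both flower bud libraries than in the other 4, where the share over all 9625 regions in 6 libraries was 14.5%. Another 228 (23.8%) were lower in both seedling libraries (18.3% of all) and 151 (15.8%) lower in both silique libraries (10.2%). Fewer domains went the other way: 91 (9.51%) were higher in seedlings (13.7% of all), 77 (8.05%) higher in siliques (13.5%) and 45 (4.70%) lower in buds (14.2%). Since flower bud peaks set the width of most domains, these shares are given as a description only.

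Coverage was higher in both flower bud libraries than in the other 4 in 729 domains (73.6%), where the share over all 23305 regions that met the tissue requirement was 64.4%. It was higher in both seedling libraries in 11 domains (1.11%, against 2.73% of all) and in both silique libraries in 3 (0.303%, against 0.558%). The largest seedling lead, measured from the lower seedling library to the highest of the other 4, was in sequence 1 from 23277637 to 23287697 (10061 bp), with 94.8 and 88.4% in seedlings, 31.3 and 41.8% in buds and 32.1 and 3.37% in siliques. Next came sequence 3 from 3432313 to 3438292 (5980 bp), with 98.5 and 100% in seedlings, 55.5 and 67.5% in buds and 58.2 and 16.4% in siliques, and sequence 2 from 14229919 to 14234996 (5078 bp), with 97.7 and 93.1% in seedlings, 78.1 and 80.8% in buds and 78.4 and 27.6% in siliques. In these domains both seedling libraries lay above the other 4. The largest flower bud leads were in sequence 13 from 5532080 to 5537585 (5506 bp), with 5.39 and 16.1% in seedlings, 98.2 and 99.6% in buds and 5.23 and 0% in siliques, in sequence 5 from 6886439 to 6893114 (6676 bp), with 0 and 4.67% in seedlings, 87.7 and 99.2% in buds and 16.4 and 0% in siliques, and in sequence 12 from 10063053 to 10068335 (5283 bp), with 17.7 and 18.6% in seedlings, 81.98 and 100% in buds and 19.7 and 13.5% in siliques. The first of these carried H3K4me3 over 11.3 and 12.6% in seedlings, 0 and 0% in buds and 12.5 and 12.1% in siliques, so the mark stood in the 4 libraries of the tissues where H3K27me3 coverage was low and was not called in buds. The second had no H3K4me3 peak in any library. In the third, H3K4me3 covered 5.32 and 6.72% in seedlings, 10.7 and 12.3% in buds and 0 and 0% in siliques. There the mark was highest in buds, where H3K27me3 coverage was highest too.

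The largest silique lead in H3K27me3 was in sequence 3 from 17986419 to 17991613 (5195 bp), which was covered over 0 and 0% in seedlings, 60.1 and 63.8% in buds and 100 and 92.3% in siliques. H3K4me3 there covered 19.9 and 20% in seedlings, 18.98 and 20.7% in buds and 0 and 0% in siliques, with no peak in the silique libraries. Its H3K4me3 peaks had a fold enrichment, the authors' ratio of summit pileup to local control, of 31.4 and 29.8 in seedlings and 33.1 and 35.7 in buds. In sequence 11 from 43817981 to 43823724 (5744 bp), the next by silique lead, H3K27me3 covered 29.2 and 32.4% in seedlings, 55 and 65.8% in buds and 98.6 and 76.03% in siliques and H3K4me3 covered 9.59 and 11.5% in seedlings, 5.75 and 8.34% in buds and 0 and 0% in siliques. The third, with a lead of 2.16 percentage points, was sequence 7 from 25289409 to 25298542 (9134 bp), covered over 74.03 and 84.3% in seedlings, 63.1 and 81.3% in buds and 100 and 86.5% in siliques, and its H3K4me3 is given with the flower bud domains below.

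H3K4me3 was scarce in the domains. Its peaks covered 1.64 and 1.90% of domain bases in seedlings, 1.38 and 1.44% in buds and 1.55 and 1.30% in siliques. In the 5 kb on either side of the domains, leaving out bases in any other H3K27me3 region, they covered 4.57 and 5.04%, 4.79 and 4.97%, and 5.60 and 4.62%. The mean was 1.53% ± 0.216 (SD, n = 6 libraries) in the domains and 4.93% ± 0.378 in the flanks, a difference of −3.40 percentage points (SD 0.383). The domains lay below the flanks in 6 of 6 libraries.

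The same held against other backgrounds. Narrower H3K27me3 regions had H3K4me3 over 3.40% ± 0.564 of their bases, which is 1.86 points more than the domains (a difference of −1.86), and the rest of the sequences had it over 4.21% ± 0.309 (a difference of −2.67). With presence required in both libraries of all 3 tissues, the domains had 1.41% and the narrower regions 2.05%, a difference of −0.636 that was still negative in 6 of 6 libraries. For each of the 3 backgrounds the exact sign-flip permutation test over 6 libraries, two-sided, gave p = 0.03125, the smallest that 64 arrangements allow, and 0.04375 after Benjamini-Hochberg adjustment over 7 tests. Within the 4 flower bud and silique libraries the differences were −3.58, −1.68 and −2.84, with an exact sign-flip p of 0.125 each, the smallest possible there. The adjusted p rose to 0.0547 without seedling H3K27me3 replicate 2 or without flower bud H3K27me3 replicate 1, because another of the 7 tests no longer reached its smallest p. It was 0.0875 without any 1 of the 6 H3K4me3 libraries, since 5 libraries cannot give an exact p below 0.0625.

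H3K4me3 dropped at the domain border. In bins of 500 bp, its share was between 4.02 and 7.81% in every bin and library from 10 kb to 500 bp outside the border. In the last 500 bp outside it was 2.06 and 2.24% in seedlings, 2.06 and 2.26% in buds and 2.52 and 1.79% in siliques. Inside it ranged from 0.934 to 2.44% over the first 2.5 kb.

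**Figure D3:**
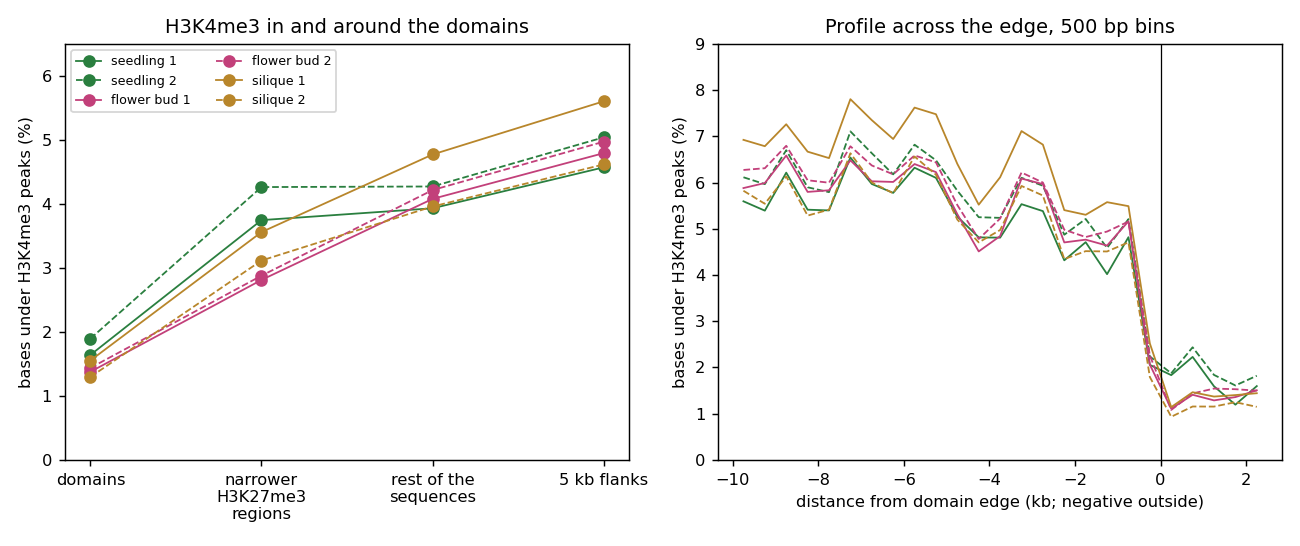
Percent of bases under H3K4me3 peaks in each of the 6 H3K4me3 libraries for domains, narrower regions, rest and flanks (points, libraries), and its course in bins of 500 bp by distance from the domain border (negative values, outside). All libraries lie between 1.30 and 1.90% in the domains and between 4.57 and 5.60% in the flanks.

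The few H3K4me3 peaks inside were weak. Peaks with their summit in a domain numbered 158 and 177 in seedlings, 119 and 122 in buds and 125 and 127 in siliques, or 0.273 to 0.363% of a list. Their median fold enrichment was 9.63 and 9.18 in seedlings, 7.85 and 7.87 in buds and 6.29 and 7.13 in siliques. Peaks with their summit in no H3K27me3 region had medians of 16.3 and 16.5, 16.9 and 16.1, and 14.9 and 17.2. The mean difference was −8.31 (SD 1.21), lower in 6 of 6 libraries, with exact permutation p = 0.03125 and an adjusted p of 0.04375. The adjusted p was 0.0547 without the same H3K27me3 libraries as above and 0.0875 without any 1 H3K4me3 library. Within the flower bud and silique libraries the difference was −8.96 (exact permutation p = 0.125, the smallest possible).

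Median peak width was 703.8 bp ± 59.8 inside and 732 bp ± 76.6 outside, a difference of −28.3 bp (SD 25.1) with exact permutation p = 0.03125 and an adjusted p of 0.04375, lower in 6 of 6 libraries. This small difference changed sign with stronger peaks only, with lists of equal length and with domains of 10 kb or more. Without seedling H3K27me3 replicate 2 or flower bud H3K27me3 replicate 1 the adjusted p was 0.0875.

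The place of H3K4me3 inside the domains depended on how uncovered bases were defined. In bases that neither H3K27me3 library of the same tissue covered, H3K4me3 covered 1.90% ± 0.651, and in bases that both covered, 1.68% ± 0.288. The difference was 0.218 points (SD 0.894), higher in 4 of 6 libraries, with exact permutation p = 0.688 and the same value after adjustment. Uncovered bases had more H3K4me3 in both seedling and both flower bud libraries and less in both silique libraries. With the breaks and covered bases of the other 2 tissues, the difference was −1.13 and negative in 6 of 6 libraries (exact permutation p = 0.03125, adjusted 0.0365). Where breaks between covered bases were taken alone, a choice made after the data were seen, it was −1.24, also negative in 6 of 6 libraries, with the same exact p and adjusted p. The outer 20% of the domain on each side held 1.48% ± 0.372 and the middle 1.57% ± 0.149, a difference of −0.0927 points (SD 0.302) with exact permutation p = 0.469 and an adjusted p of 0.547.

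H3K4me3 was present in 267 of the 991 domains in at least 1 library (26.9%), while 15.3% of all H3K27me3 regions that met the tissue requirement had one. A wide region offers more bases for a peak, and these shares make no allowance for width. It was present in all 6 libraries in 48 domains (4.84%, against 3.78% of all such regions) and in none in 724. By library, 161 and 178 domains had it in seedlings, 124 and 127 in buds and 133 and 129 in siliques. The share of domain bases averaged 1.77% in seedlings, 1.41% in buds and 1.42% in siliques, and an exact permutation test over 15 arrangements of the libraries into tissue pairs gave p = 0.2, where the smallest possible is 0.0667. The highest and lowest tissue means differed by 0.360 points, and by 0.0156 points with lists of equal length and 0.0304 points with domains of 10 kb or more.

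Both seedling libraries and no other had H3K4me3 in 55 domains (5.55%), against 3.26% of all regions that met the tissue requirement. The counts were 16 for flower bud (1.61%, against 0.708%) and 21 for silique (2.12%, against 0.974%). Seen from the H3K4me3 side, 274 of 51928 merged H3K4me3 regions overlapped a domain (0.528%), and 243 of these lay wholly inside. Only 52 of the 274 (18.98%) were present in all 6 libraries, compared with 73.0% of all merged H3K4me3 regions, and 41 (14.96%) were in a single library, compared with 4.44%.

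H3K4me3 regions in the domains often differed between tissues. Of the 274, 74 (27.01%, 95% Wilson interval 22.1 to 32.6) were in both seedling libraries and neither bud library, against 9.32% of all H3K4me3 regions, and 76 (27.7%) were in seedlings and not silique, against 9.24%. In flower bud and not seedling were 33 (12.04%, against 2.68%), and in buds and not silique 34 (12.4%, against 3.62%). In silique and not seedling were 40 (14.6%, against 2.9%), and in siliques and not flower bud 37 (13.5%, against 3.86%). The intervals cover counting error only and treat regions as independent. In 18 of 18 settings tried, the share in domains was above that of all regions in each of the 6 directions.

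**Figure D4:**
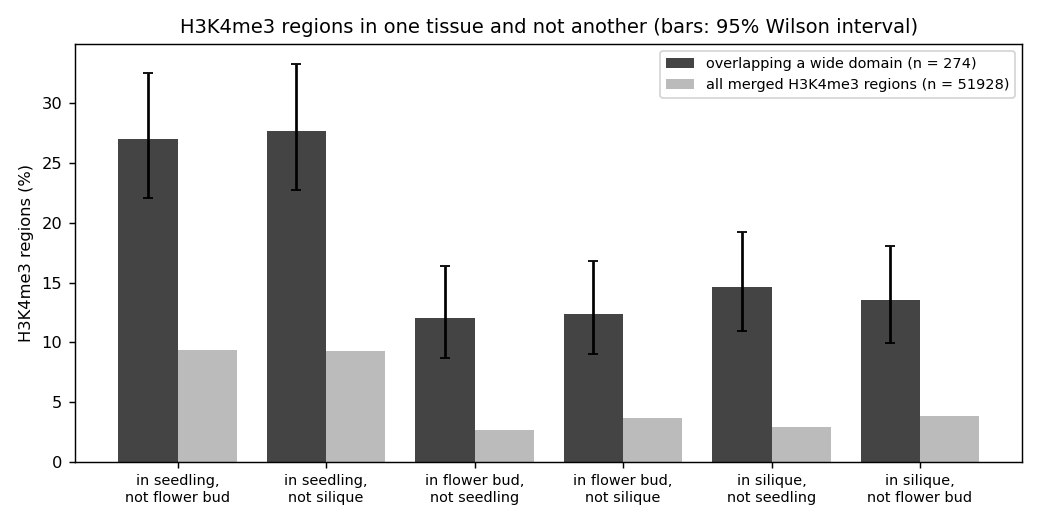
Percent of merged H3K4me3 regions present in both libraries of 1 tissue and neither of another, for the 274 regions overlapping a domain (bars, 95% Wilson intervals) and for all 51928, in the 6 directions. The share in domains runs from 12.04 to 27.7% and that of all regions from 2.68 to 9.32%.

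H3K4me3 regions in domains had a lower highest fold (median 8.84) than the 51654 others (18.5). The highest fold was taken over the lists, so a region called in more libraries draws it from more values. Fold class and presence in all 6 libraries are therefore linked by construction. The regions were therefore split into 3 classes at the points that divide the 274 evenly, a choice made after the data were seen. In the highest class, with a fold over 13.2, 42.9% of 91 regions in domains were present in all 6 libraries, against 93.5% of 34944 elsewhere. There, 22.0% of those in domains were in seedlings and not flower bud, against 2.76% elsewhere, and 14.3% were in buds and not seedling, against 0.601%. The highest class has no upper limit, and the largest fold was 55.2 in domains and 154 elsewhere, so strength was not matched within it. In the lowest class, 0% of regions in domains and 2.15% elsewhere were present in all 6 libraries. In the middle class these shares were 14.3 and 42.4%. In the lowest class, 22.8% of regions in domains and 22.7% elsewhere were in seedlings and not flower bud, and 19.6 and 22.2% were in seedlings and not silique. The shares there were 10.9 and 8.36% for buds and not seedling, and 8.70 and 8.34% for buds and not silique. They were 17.4 and 10.2% for siliques and not seedling, and 13.0 and 10.7% for siliques and not flower bud.

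Domains with H3K4me3 in seedlings or silique alone had low H3K27me3 coverage in that tissue, and those with it in buds alone did not rank flower bud lowest. Among the 55 domains with H3K4me3 in seedlings alone, median H3K27me3 coverage was 33.4 and 30.5% in seedlings, compared with 70.6 and 62.6% over all domains. Coverage there was 93.2 and 99.8% in buds and 84.0 and 47.2% in siliques, close to the medians of all domains. Among the 21 with H3K4me3 in siliques alone, silique coverage was 61.9 and 33.5% (84.0 and 48.4% over all domains) and seedling coverage was 79.6 and 69.2%. Among the 16 with H3K4me3 in buds alone, flower bud coverage was 87.5 and 89.8% (92.7 and 99.3% over all domains), seedling coverage was 79.7 and 73.9% and silique coverage 94.5 and 51.7%. For these 3 classes the median was below that of all domains in both libraries of the tissue with H3K4me3. In the 48 domains with H3K4me3 in all 6 libraries, coverage was 62.8 and 51.1% in seedlings, 88.0 and 98.9% in buds and 77.4 and 36.7% in siliques, each below the median of all domains in that library. These medians are descriptions, since H3K27me3 coverage chose the domains.

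**Figure D5:**
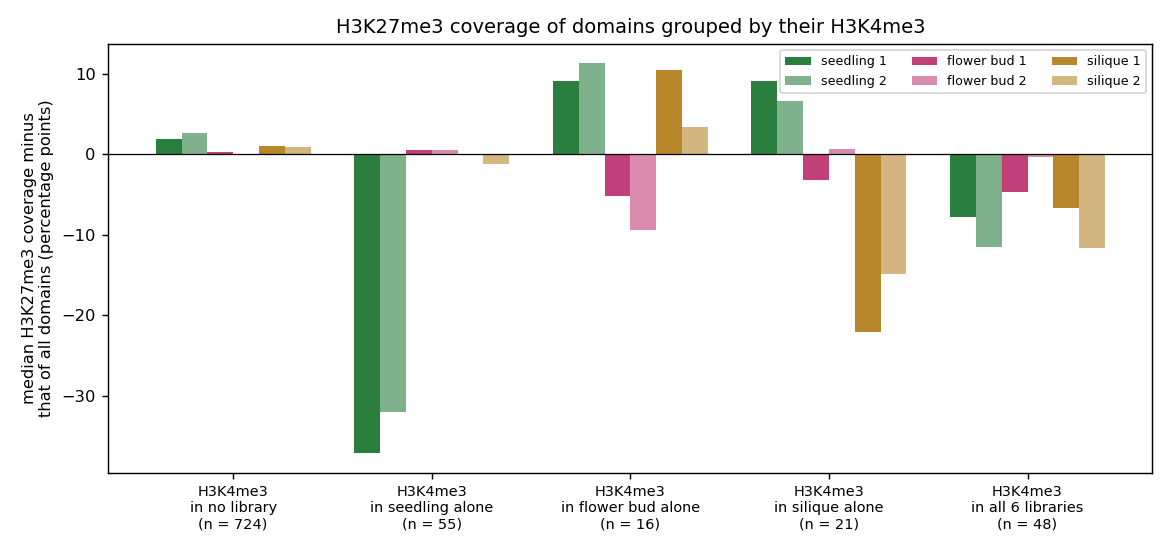
Median H3K27me3 coverage of the domains in each of the 6 H3K27me3 libraries minus that of all domains (bars, percentage points), by where H3K4me3 was present. Seedling libraries lie at −37.2 and −32.1 in the 55 domains with H3K4me3 in seedlings alone, and silique libraries lie at −22.1 and −14.9 in the 21 with it in siliques alone.

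H3K4me3 bases within the domains lay partly under H3K27me3 of the same tissue, as did domain bases in general. Of the seedling H3K4me3 bases in library 2, seedling H3K27me3 libraries covered 57.7 and 54.3%, below the 67.3 and 60.1% of all domain bases. Flower bud H3K27me3 libraries covered 95.7 and 97.9% of these seedling bases, against 90.5 and 97.3% of all domain bases. Of flower bud H3K4me3 bases in library 1, flower bud H3K27me3 covered 94.8 and 97.2% (90.5 and 97.3% of all domain bases). Seedling H3K27me3 covered 79.9 and 78.4% of these bud bases (67.3 and 60.1% of all). Of silique H3K4me3 bases in library 1, silique H3K27me3 covered 84.9 and 66.1%, above the 80.3 and 47.9% of all domain bases.

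The largest seedling leads in H3K4me3 show both marks at opposite levels. In sequence 18 from 46249256 to 46256238 (6983 bp), H3K4me3 covered 21.2 and 22.1% in seedlings, 0 and 0% in buds and 0 and 0% in siliques, with a fold of 18.9 and 22.3 in seedlings. H3K27me3 covered 3.62 and 0% in seedlings, 96.4 and 100% in buds and 87.4 and 72.98% in siliques. In sequence 9 from 38873790 to 38880594 (6805 bp), H3K4me3 covered 20.6 and 21.3% in seedlings, 0 and 0% in buds and 0 and 0% in siliques and H3K27me3 14.02 and 0% in seedlings, 98.9 and 100% in buds and 96.9 and 84.3% in siliques. In both domains the seedling libraries lay apart from the other 4 in each mark. In sequence 2 from 32379561 to 32385536 (5976 bp), H3K4me3 covered 24.7 and 29.7% in seedlings, 0 and 0% in buds and 0 and 0% in siliques and H3K27me3 20.7 and 16.4% in seedlings, 85.6 and 99.9% in buds and 74.1 and 20.9% in siliques, where silique library 2 lay close to seedling in H3K27me3.

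The largest flower bud leads in H3K4me3 lay in domains that flower bud H3K27me3 also covered. In sequence 16 from 43506388 to 43511533 (5146 bp), H3K4me3 covered 0 and 0% in seedlings, 43.8 and 40.9% in buds and 0 and 0% in siliques, while H3K27me3 covered 78.9 and 87.2% in seedlings, 76.9 and 85.1% in buds and 97.1 and 86.8% in siliques. In sequence 13 from 57910831 to 57916944 (6114 bp), H3K4me3 covered 0 and 0% in seedlings, 18.01 and 18.6% in buds and 0 and 0% in siliques, and H3K27me3 89.9 and 88.3% in seedlings, 87.8 and 87.4% in buds and 100 and 89.5% in siliques. In sequence 7 from 25289409 to 25298542 (9134 bp), H3K4me3 covered 0 and 0% in seedlings, 17.3 and 17.7% in buds and 0 and 0% in siliques. In these 3 domains H3K4me3 was called in buds alone, and flower bud H3K27me3 covered more than 60% of the domain. Their flower bud H3K27me3 pileup was low for that tissue, at 87 and 104, 75 and 89, and 90 and 108 fragments, against domain medians of 150 and 180. The choice of domains left little room for low flower bud coverage. In each flower bud library only 1 of the 991 domains was under 50% covered, so a contrast with the seedling leads cannot be drawn from coverage.

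The largest silique leads in H3K4me3 were in sequence 3 from 24437491 to 24444681 (7191 bp), sequence 5 from 1836556 to 1843362 (6807 bp) and sequence 17 from 43702991 to 43710117 (7127 bp). H3K4me3 there covered 17.3 and 14.9%, 15.8 and 14.7%, and 17.7 and 13.6% in siliques, with no peak in the other 4 libraries. H3K27me3 in the first covered 89.2 and 86.6% in seedlings, 95.5 and 100% in buds and 86.8 and 60.2% in siliques. In the second it covered 43.4 and 44.7% in seedlings, 89.5 and 100% in buds and 23.2 and 10.3% in siliques, and in the third 80.3 and 69.2% in seedlings, 86.1 and 100% in buds and 47.99 and 19% in siliques. In the domains on sequences 5 and 17, both silique libraries lay below all libraries of the other tissues, and in the one on sequence 3 they did not.

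The domains with the most H3K4me3 in the mean of all libraries lay on sequences 8 and 9. In sequence 9 from 28654739 to 28660245 (5507 bp), H3K4me3 covered 19.7 and 23.4% in seedlings, 20.1 and 20.7% in buds and 23.5 and 20.03% in siliques, and H3K27me3 25.4 and 25.7% in seedlings, 79.7 and 96.7% in buds and 93.6 and 49.2% in siliques. In sequence 9 from 25447327 to 25453126 (5800 bp), H3K4me3 covered 16.4 and 18.9% in seedlings, 22.98 and 24.9% in buds and 22.8 and 19.8% in siliques, and H3K27me3 76.8 and 65.3% in seedlings, 71.4 and 86.2% in buds and 91.6 and 53.2% in siliques. In sequence 8 from 21295542 to 21301465 (5924 bp), H3K4me3 covered 17.9 and 22.1% in seedlings, 17.5 and 20.1% in buds and 23.6 and 19.3% in siliques, and H3K27me3 28.2 and 19.9% in seedlings, 90.97 and 93.7% in buds and 91.1 and 26.8% in siliques. All 6 libraries had 1 H3K4me3 peak in each of these domains.

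A wider set of domains was bare of H3K27me3 in 1 tissue and well covered in another. With at least 50% coverage in both libraries of a tissue and less than 10% in both of another, limits chosen after the data were seen, 23 domains were covered in buds and bare in seedlings. H3K4me3 was in both seedling libraries in 17 of the 23 and in both flower bud libraries in 6. It was in both seedling libraries and neither bud library in 9 of the 23 (39.1%), compared with 72 of all 991 domains (7.27%) and 4.66% of all H3K27me3 regions that met the tissue requirement. In 5 of the 23 no library had H3K4me3, compared with 724 of all 991 domains (73.1%).

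H3K4me3 covered 11.8 and 12.5% of the bases of these 23 domains in seedlings, 3.86 and 4.80% in buds and 2.75 and 1.70% in siliques. The seedling libraries did not overlap with the others. These values are given without a test, because the 23 were picked after the data were seen.

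Of the 23 domains, 10 were also covered in siliques, and all 10 had H3K4me3 in both seedling libraries (15.6% of all 991 domains). In 7 of these 10 neither silique library had it, compared with 75 of all 991 domains (7.57%) and 4.05% of all regions that met the tissue requirement. Among the 10 was sequence 10 from 19531457 to 19539009 (7553 bp), with H3K27me3 over 0 and 0% in seedlings, 85.2 and 97.99% in buds and 91.5 and 65.03% in siliques and H3K4me3 over 9.59 and 10.9% in seedlings, 0 and 0% in buds and 0 and 0% in siliques. This domain was picked as an example after its values were seen. Another 3 domains were covered in buds and bare in siliques, 1 of which had H3K4me3 in siliques and not flower bud (2.16% of all regions). That domain was the one on sequence 13 that starts at 5532080, named above, and the other 2 are those named next.

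Only 2 domains were covered in seedlings and bare in siliques, sequence 1 from 5625391 to 5634009 (8619 bp) and sequence 13 from 65687383 to 65694772 (7390 bp), named because they are so few. In the first, H3K27me3 covered 75.2 and 84.6% in seedlings, 97.2 and 100% in buds and 0 and 0% in siliques, and H3K4me3 covered 0 and 0% in seedlings, 11.4 and 11.5% in buds and 16.1 and 14.8% in siliques. In the second, H3K27me3 covered 88.7 and 89.3% in seedlings, 96.1 and 100% in buds and 0 and 0% in siliques, and H3K4me3 covered 0 and 0% in seedlings, 9.82 and 12.3% in buds and 16.8 and 15.6% in siliques. Both had H3K4me3 in siliques and not in seedlings, where the share over all regions was 1.83%. No domain was bare in buds.

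The domains were spread unevenly over the sequences. On sequences 1 to 10 there were 525 domains, or 16.9 per 10 Mb, and on sequences 11 to 19 there were 466, or 8.51 per 10 Mb. Narrower regions differed in the same direction, so that domains numbered 5.03 per 100 narrower regions on sequences 1 to 10 and 3.93 on sequences 11 to 19. Density was highest on sequence 2, with 25.1 per 10 Mb, and lowest on sequence 18, with 6.77. The outer 10% at each end of the sequences, 20% of their length in all, held 36.6% of the domains, 28.5% of the narrower regions and 28.1% of the H3K4me3 regions.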

How the data were processed

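H3K27me3 and H3K4me3 ChIP-seq peak lists of 12 *Brassica napus* libraries were analysed. The submitters' processing notes name BWA, SAMtools, GATK and MACS2 as tools, and the genome build is not given in the sources used here. Per the file headers, the authors called narrow peaks in each library from paired-end data with MACS 2.2.7.1 and a q-value cutoff of 1e-05, keeping 1 fragment per duplicate position, all against the same control. The deposited pileup is a signal that gives coverage by fragments at each summit. The deposited p-value and q-value are given as −log10. The deposited fold enrichment is the authors' ratio of pileup to local control. It was used within a list, except that the fold classes of merged H3K4me3 regions use the highest fold over the lists. The absence of a peak means that none was called at that depth.

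Overlapping H3K27me3 peaks were merged, and coverage, breaks, pileup and H3K4me3 peaks were counted per domain. H3K4me3 was compared with two-sided exact sign-flip permutations over 6 libraries, adjusted by Benjamini-Hochberg over 7 tests, and tissues with exact permutations over 15 arrangements. The counting code was tested on simulated peak lists, which checks the counting alone. The domains and tests were chosen with earlier results of these data known. Domains named are the 10 widest, the 3 with the most separate peaks in a library, the 3 per tissue with the largest lead in coverage of each mark, the 3 with the highest mean H3K4me3 share, and those next to the width limit. Alternatives were a width of 10000 bp, peaks with −log10 q of 10 or more, merging over 500 bp, equal list lengths, presence in all 3 tissues, flanks of 20 kb, ends of 1000 bp, breaks of the other tissues, an overlap of 50%, and leaving out each library. The match of 19 sequence extents to the Da-Ae assembly (Pearson r = 0.994 over 19 sequences) is a description. Calculations used Python 3.11.15, numpy 2.4.6, pandas 2.3.3, scipy 1.17.1 and matplotlib 3.10.9.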

Additional observations from a re-analysis of the deposited data

Results flagged for a closer look

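With uncovered bases taken from the same tissue and domains of 5000 bp or more, the place of H3K4me3 within the domains went opposite ways in different tissues. The H3K4me3 share of uncovered bases minus that of covered bases averaged 0.864 percentage points in seedlings and 0.722 in buds but −0.933 in siliques, with both libraries of a tissue on the same side. The difference was 1.80 points between seedling and silique and 1.66 between flower bud and silique. The opposite directions were absent with the breaks of the other 2 tissues (−1.34 to −0.886 over libraries) and with breaks between covered bases, chosen after the data were seen (−1.55 to −0.660). The share at domain ends minus that in the middle averaged 0.289 points in seedlings, −0.247 in buds and −0.321 in siliques, again with both libraries of each tissue on 1 side, so that seedling differed from flower bud by 0.536 and from silique by 0.610. In domains of 10000 bp or more that difference was negative in all 6 libraries (−1.59 to −0.804). For both measures an exact permutation over the 3 tissues gave p = 0.0667, the smallest that 15 arrangements allow, and the single pairs of tissues were not tested. Both were flagged because the libraries of 1 tissue lay above 0 and those of another below. A low p therefore follows largely from that choice and supports nothing further. Among the 7 measures, the same permutation, unadjusted, also gave p = 0.0667 against narrower regions, and 0.133 to 0.467 for the rest.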

How the results depend on the processing

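A minimum width of 10000 bp left 48 domains, and leaving out an H3K27me3 library left 712 to 990, the fewest without flower bud H3K27me3 replicate 2. With peaks of −log10 q of 10 or more the differences were −3.45 (flanks), −1.77 (narrower regions), −2.72 (rest) and −7.90 (fold), and with equal list lengths −3.39, −1.52, −2.73 and −7.47. With presence in all 3 tissues the difference from narrower regions was −0.636. Domains stayed lower in 6 of 6 libraries in these settings, but with stronger peaks or equal lists the adjusted exact p rose to 0.0547, since peak width no longer reached its smallest p. Peak width turned to 17.3 bp (10000 bp), 0.917 bp (stronger peaks) and 0.417 bp (equal lists). Uncovered against covered bases turned to −0.777 (10000 bp), −0.329 (merging over 500 bp), −0.339 (presence in all 3 tissues), −1.13 (breaks of the other tissues, lower in 6 of 6, adjusted exact permutation p = 0.0365) and −1.24 (breaks between covered bases, chosen after the data were seen). Ends against middle moved to −1.33 at 10000 bp (adjusted exact permutation p = 0.0438, lower in 6 of 6) and 0.0193 with merging over 500 bp. For these 3 results the cause was not tested. The share in seedlings and not flower bud was 16.7% (10000 bp, 18 regions) and 20.7% (equal lists), in seedlings and not silique 11.1 and 20.3%, in buds and not seedling 22.2 and 19.4%, and in siliques and not seedling 21.6% with equal lists.

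Leaving out each library in turn gave −3.49 to −3.27 for the flanks, −2.15 to −1.76 for narrower regions, −2.83 to −2.56 for the rest, −8.64 to −7.95 for fold, −40.1 to −19.1 bp for width, 0.0801 to 0.452 for uncovered bases, and −0.185 to 0.0149 for ends, the last without flower bud H3K27me3 replicate 2. Shares between tissues ran from 26.9 to 33.7% (seedling, not flower bud), 26.7 to 33.3% (seedling, not silique), 11.03 to 15.6% (flower bud, not seedling), 11.03 to 16.4% (flower bud, not silique), 14.4 to 19.6% (silique, not seedling) and 13.3 to 18.1% (silique, not flower bud). H3K27me3 and H3K4me3 libraries could not be paired by replicate, because the labels number no replicates. The sign-flip tests paired values within each H3K4me3 library only. A peak missing from a library was not called at its depth, and the part of depth in the H3K27me3 differences was not tested.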

Other observations

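Domains sometimes lay close together. Of 972 neighbouring pairs on the same sequence, 44 were within 10 kb and 142 (14.6%) within 50 kb, while the median distance was 334.6 kb, and the closest pair was 307 bp apart. Chains of 3 or more domains with gaps of at most 50 kb numbered 20. The longest held 5 domains and ran on sequence 2 from 3714068 to 3803105. On sequence 3, the domain from 3432313 to 3438292 had more H3K27me3 in seedlings than elsewhere, and the domain from 3440620 to 3454023 beside it was covered over 92.2 and 89.2% in seedlings, 94.7 and 100% in buds and 91.99 and 75.1% in siliques.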
